A study of Mus musculus with 14 samples.

Results

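The comparison described here set KLRG1lo effector CD8+ T cells labelled Id2KOBimKO against KLRG1lo cells labelled BimKO. Each group had 2 arrays, so 4 of the 14 arrays of the study were compared. The arrays were chosen by sample title, and no measured value entered the choice. Both groups carried the BimKO label, and the label Id2KO was the stated difference between them. All mice were described as C57BL/6J. Donor cells from fetal liver chimeras were given to congenic recipients, the recipients were infected with Listeria carrying ovalbumin the next day, and the cells were sorted by flow cytometry on day 6. The source labels of the BimKO, Id2KO and wild-type (WT) arrays name OT-I, a T cell receptor specific for a peptide of ovalbumin, whereas those of the Id2KOBimKO arrays do not. The labels name no Cre line or deleted exon, do not say whether sorts were pooled, and do not say whether replicates came from separate animals. The p-values therefore measure a spread between samples that may be technical. That spread was pooled over all 14 arrays in 5 groups, so most of it came from arrays outside the 4 compared. The groups used for reference were Id2KO KLRG1lo (2 arrays), WT KLRG1lo (5 arrays) and WT KLRG1hi (3 arrays), all at the same day of infection.

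Id2 is an inhibitor of DNA binding: it pairs with E proteins, basic helix-loop-helix factors that bind a short DNA motif called an E-box, and keeps them from binding DNA. In CD8+ T cells responding to infection Id2 is known for supporting the survival and differentiation of effector cells, and its relative Id3 for marking cells with memory potential. Bim, encoded by Bcl2l11, is a BH3-only member of the Bcl-2 family that starts death through mitochondria, and its removal lets many short-lived T cells persist. KLRG1 is an inhibitory surface receptor of terminal effector cells, and KLRG1lo cells include the precursors of memory cells. The question set by the design was which transcripts differ with the Id2 label once Bim is labelled absent.

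The genes with the smallest p-values of the comparison were Pls1, which encodes the actin-bundling protein plastin 1, and Slc43a1, which encodes the amino acid transporter LAT3. Their promoters are shown because E proteins bind E-boxes, the motif CANNTG, which as a pattern is the same on both strands. Each line gives the 250 bases before the start of the gene, 5′ to 3′ on the strand of the gene, from RefSeq for build GRCm38.p6, and capitals mark each CANNTG. The Pls1 window is chr9:95845280-95845529 on the minus strand and the Slc43a1 window is chr2:84840073-84840322 on the plus strand.
Pls1: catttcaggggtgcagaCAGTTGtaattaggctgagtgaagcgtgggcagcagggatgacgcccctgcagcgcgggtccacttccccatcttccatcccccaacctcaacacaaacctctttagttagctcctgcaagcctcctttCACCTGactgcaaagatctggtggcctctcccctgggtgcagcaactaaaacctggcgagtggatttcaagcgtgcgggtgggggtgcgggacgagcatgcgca
Slc43a1: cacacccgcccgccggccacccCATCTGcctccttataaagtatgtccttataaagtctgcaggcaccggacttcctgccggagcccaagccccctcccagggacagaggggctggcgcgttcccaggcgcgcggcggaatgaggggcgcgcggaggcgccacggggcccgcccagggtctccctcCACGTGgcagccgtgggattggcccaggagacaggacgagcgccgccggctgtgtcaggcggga
Each window held 2 copies of CANNTG, against a median of 1 in all 32851 promoters of the table, 66.2% of which held at least 1. The Pls1 copies read CAGTTG and CACCTG, and those of Slc43a1 read CATCTG and CACGTG. Each of the forms CACCTG, its complement CAGGTG, and CAGCTG is itself a CANNTG. The first pair occurred in 17.2% of all promoters, and CAGCTG in 13%. A match of letters describes the sequence and is not evidence of binding.

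The values were RMA signals on arrays, so the number of arrays limits the precision. Median linear signals of the 4 arrays lay between 49.8 and 53.2. Among the 14438 genes tested, log2 values correlated at 0.979 between the Id2KOBimKO arrays and at 0.971 between the BimKO arrays, while BimKO replicate 1 correlated at 0.982 with each Id2KOBimKO array. BimKO replicate 2 stood apart from the others: 76 genes were at least 2-fold above the mean of the other 3 arrays there, against 1 to 20 genes on each of the others. Genes chosen after their values were seen show what was high on it. Car1, a carbonic anhydrase of red cell precursors, read 8.16 there and 4.73 to 5.09 on the other 3 arrays. H2-Aa, a class II antigen-presenting chain, read 7.93 against 4.30 to 6.69, and Il2ra, the IL-2 receptor alpha chain, read 8.82 against 6.06 to 6.63. Other red cell precursor markers did not follow Car1. Alas2 read 8.20 on Id2KOBimKO replicate 2 and 6.45 on BimKO replicate 2, Slc4a1 8.37 and 7.16, and Car2 7.33 and 7.51. The background, taken as the middle log2 value of probe sets with no gene name, was 5.07 on Id2KOBimKO replicate 1 and 5.23 to 5.39 on the other 3 arrays.

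All 11 measured CD8 T cell identity genes were above the background on all 4 arrays, with Cd8a at 11.75 and 11.70 in Id2KOBimKO and 11.52 and 11.35 in BimKO. For each list of markers of other cells given here, the BimKO replicates were further apart than the group means. The summed linear signal of 13 B cell markers was 697 and 1191 on Id2KOBimKO replicates 1 and 2 and 623 and 1719 on BimKO replicates 1 and 2, with 8, 8, 6 and 11 of the 13 above the background, and that of 14 monocyte and macrophage markers was 1478 and 1760 against 1371 and 2022. Among 7 measured red cell precursor markers the sums were 331 and 973 against 370 and 855, and for 12 neutrophil markers they were 355 and 398 against 376 and 521. The 9 NK cell markers summed to 1964 and 1815 against 1854 and 2746, and 9 markers of CD4 and regulatory T cells to 817 and 826 against 676 and 1185. The highest sum stood on BimKO replicate 2 for each of these lists except the red cell list. In both groups replicate 2 had higher B cell, monocyte, neutrophil and red cell sums than replicate 1. Without that array all 12 tested B cell markers had a difference above 0 between the groups, with a median of 0.31, against 3 of 12 and -0.10 with it. Ncr1, a defining NK cell gene, and Pf4, a defining platelet gene, read 3.94 to 4.21 and 4.17 to 4.34 on the 4 arrays, below the background. The part of these markers in the differences below was not tested, and fewer cells of a type cannot be told apart from less RNA per cell in sorted bulk samples.

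Id2 checked the label of the comparison. It read 9.84 and 9.64 on the Id2KOBimKO arrays (mean 9.74 ± 0.14, SD, n = 2) and 10.75 and 10.93 on the BimKO arrays (10.84 ± 0.13, SD, n = 2). The groups did not overlap, and the log2 difference was -1.10 (SE 0.22), a 2.14-fold lower signal, with an unadjusted p of 0.000122 and an adjusted p of 0.587 (limma, Benjamini-Hochberg). The remaining signal was far above the background, so absence of Id2 rests on the label. Bcl2l11 read 7.59 and 8.01 in Id2KOBimKO and 7.36 and 7.66 in BimKO, within or near the 7.44 to 7.92 of the 5 WT KLRG1lo arrays. Its single probe set therefore did not separate arrays labelled BimKO from WT, no source used here places that probe set relative to the deletion, and the Bim status of all 4 arrays rests on their labels. Klrg1, the gene of the sorted protein, read 5.24 and 6.82 in Id2KOBimKO and 5.95 and 5.85 in BimKO, beside 6.02 to 6.74 in WT KLRG1lo.

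Across the 14438 genes tested, 0 passed an adjusted p of 0.05 (0%) between Id2KOBimKO and BimKO KLRG1lo cells, and the smallest adjusted p was 0.306. With limma, 262 genes (1.81%) had an unadjusted p under 0.05, of which 132 were higher (0.914%) and 130 lower (0.9%) in Id2KOBimKO. If no gene differed, 722 would be expected under 0.05, more than were seen. Signals of the groups did not overlap for 2547 genes that were higher (17.6%) and 1735 that were lower (12%). For a gene with no difference, 2 arrays against 2 are separate in either direction with a probability of 0.333. The median log2 difference was 0.03, 8185 genes (56.7%) had a difference above 0, and the values between the 5th and 95th percentiles ran from -0.31 to 0.33. A difference of at least 2-fold was seen for 7 genes that were higher and 15 that were lower. With 2 arrays against 2, an exact two-sided permutation test of a single gene cannot give a p below 0.333. Since 0 genes passed the adjusted p of limma, the differences that follow are values that did not pass. The genes named as higher or lower are the 10 with the smallest unadjusted p in each direction among those whose arrays did not overlap, passing over predicted gene names (0 higher, 1 lower), and up to 4 genes with the smallest p are named for each gene list.

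Pls1 read 7.53 and 7.25 on the Id2KOBimKO arrays and 6.18 and 5.87 on the BimKO arrays. Both Id2KOBimKO arrays were higher than both BimKO arrays and than all WT KLRG1lo arrays (5.78 to 6.49), with a log2 difference of 1.36 (SE 0.24, unadjusted p = 2.34e-05, adjusted p = 0.306), or 2.56-fold. Slc43a1 read 7.66 and 7.66 against 6.28 and 6.78. The Id2KOBimKO arrays again lay above every BimKO and WT KLRG1lo array (WT 6.45 to 6.95), and the difference was 1.13 (SE 0.21, unadjusted p = 4.24e-05, adjusted p = 0.306), or 2.19-fold. Erbb3, a receptor tyrosine kinase of the EGF receptor family, read 7.07 and 6.46 against 5.71 and 5.44, a difference of 1.19 (SE 0.25, adjusted p = 0.646). Its groups did not overlap, but the lower Id2KOBimKO array lay within the WT KLRG1lo range of 6.01 to 6.57. Without BimKO replicate 2 the differences of these 3 genes were 1.20, 1.38 and 1.06.

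Nrp1, a co-receptor for semaphorins, had the largest difference of all genes tested that were higher: it read 8.73 and 8.62 in Id2KOBimKO and 7.49 and 6.95 in BimKO, a difference of 1.45 (SE 0.34, adjusted p rounding to 1), or 2.74-fold. Actn1, which encodes the actin crosslinker alpha-actinin 1, read 10.16 and 9.98 against 9.41 and 8.66. Its difference was 1.03 with all arrays and 0.66 without BimKO replicate 2, which held the lowest value. Mprip, a binding partner of RhoA and myosin phosphatase, read 7.39 and 7.61 against 6.46 and 6.82, a difference of 0.86 (SE 0.19, adjusted p = 0.941). The groups were separate for all 3 genes. The other 4 of the 10 were Sema7a, a membrane semaphorin, with a difference of 0.97, Ngly1, a cytosolic glycanase, with 0.87, Snai3, a zinc finger regulator of the Snail family, with 0.75, and Il6ra, the IL-6 receptor alpha chain, with 0.70. Ngly1 was the most even of these: its arrays read 9.42 and 9.41 against 8.53 and 8.56.

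**Figure D1:**
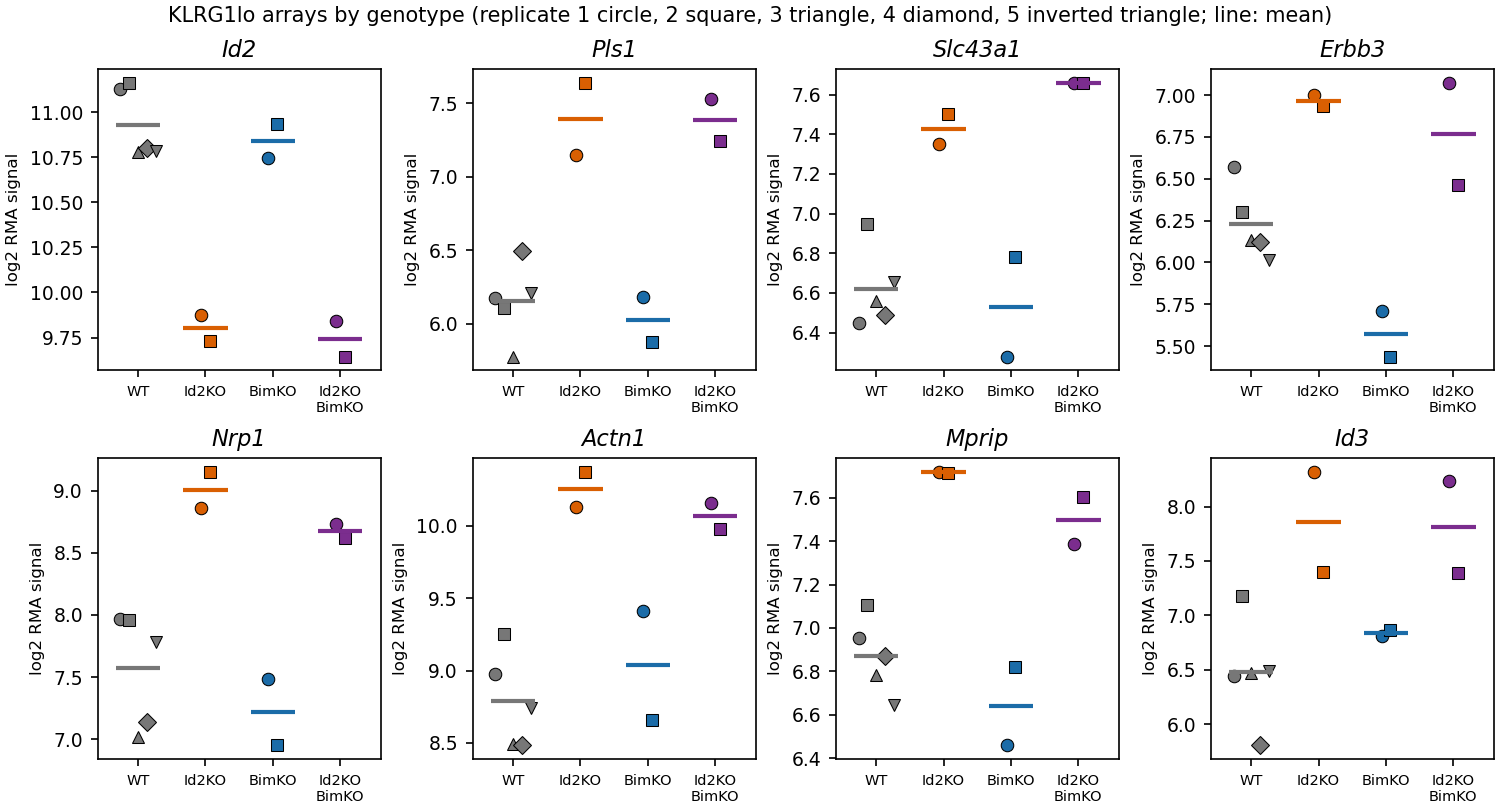
Log2 RMA signal of 8 genes on the KLRG1lo arrays of each genotype (5 WT, 2 Id2KO, 2 BimKO and 2 Id2KOBimKO), 1 point per array with the mean as a line, and each panel with its own vertical range. Pls1 and Slc43a1 lay at 7.25 to 7.66 on both Id2KOBimKO arrays and at 5.87 to 6.78 on both BimKO arrays, and Id2 was at most 9.84 against at least 10.75.

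On the lower side, Rnf144a, a ubiquitin ligase, had the smallest p after Id2. It read 7.02 and 6.59 in Id2KOBimKO and 7.84 and 7.95 in BimKO, and both Id2KOBimKO arrays were below all WT KLRG1lo arrays (7.55 to 8.07). The difference was -1.09 (SE 0.23, unadjusted p = 0.000229, adjusted p = 0.661). In the gene order of GRCm38.p6, Rnf144a is the next measured gene to Id2, and the next on the other side, Kidins220, named for its position, differed by -0.19. Aim2, a sensor of cytosolic DNA, read 5.94 and 6.47 against 7.15 and 7.28, a difference of -1.01 (SE 0.24). Here the BimKO arrays were the ones that stood away from WT KLRG1lo (5.78 to 6.37), while the Id2KOBimKO arrays were in or near that range.

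Lilr4b, an immunoglobulin-like receptor, had a difference of -1.55 (SE 0.43), with arrays at 6.53 and 8.11 against 8.67 and 9.08. The Id2KOBimKO arrays differed from each other by more than the gap between the groups. Its close relative Lilrb4a differed by -1.16, and by -0.75 without BimKO replicate 2, and since probes of near-identical genes can share signal, the pair is not counted as separate evidence. Nt5e, which encodes the ectoenzyme CD73, read 5.35 and 5.17 against 5.93 and 7.27, so that its difference of -1.34 became -0.67 without BimKO replicate 2. Fgl2, a secreted fibrinogen-like protein, differed by -1.16, Samd3 by -1.04, Cish, a feedback inhibitor of cytokine signalling, by -0.85 and Klrb1f, a lectin-like receptor, by -0.73. Without BimKO replicate 2 Samd3 was at -0.50, Fgl2 at -0.66 and Cish at -0.55.

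**Figure D2:**
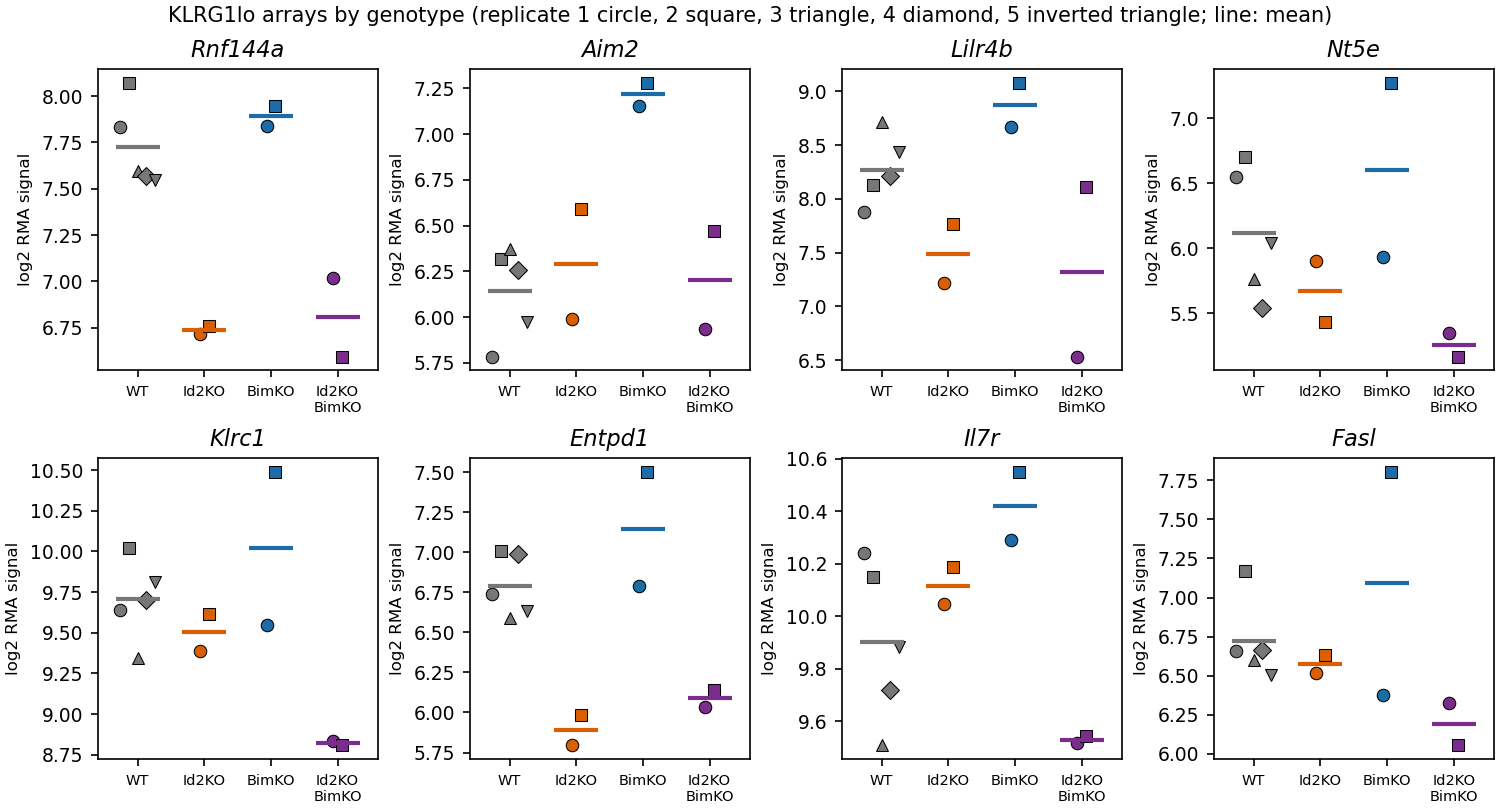
Log2 RMA signal of 8 genes with lower mean signal in Id2KOBimKO than in BimKO KLRG1lo cells, drawn as in the plot of Id2 and Pls1, with 1 point per array and the mean as a line. Rnf144a and Aim2 have close BimKO arrays, whereas Nt5e (5.93 and 7.27), Klrc1 (9.55 and 10.49), Entpd1 (6.79 and 7.50) and Fasl (6.38 and 7.81) have their highest value on BimKO replicate 2.

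The 50 genes with the smallest p on each side were followed when BimKO replicate 2 was left out. All 50 on each side have separate arrays, so their sign cannot turn when an array is left out, and only the size is informative. The 50 that were higher had a median difference of 0.70 with it and 0.73 without it, and for 2 the difference shrank by at least 50%. The median of the 50 that were lower moved from -0.83 to -0.54 and for 11 the difference shrank by at least 50%. The count of genes with an unadjusted p under 0.05 was 148 without that array.

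Among the E and Id proteins, Id2 and Id3 were the members whose arrays did not overlap, 1 of 7 in each direction (14.3%), near the 17.6% and 12% of all genes. Id3 read 8.24 and 7.38 in Id2KOBimKO and 6.81 and 6.86 in BimKO, with a difference of 0.98 (SE 0.38, unadjusted p = 0.0191, adjusted p rounding to 1). The Id2KOBimKO replicates were 0.86 apart on the log2 scale, nearly as far as the groups. Id1 and Id4 differed by 0.01 and -0.02, and the E proteins Tcf3, Tcf4 and Tcf12, which Id proteins bind, by -0.01, -0.14 and 0.00, none of them beyond the spread between replicates. Tcf3, which encodes E2A, read 8.58 and 8.25 against 8.57 and 8.26. The 14 tested genes linked to E proteins had a median difference of 0.03, the same as all genes, with 0 passing, and Cxcr5 (0.76) and Il7r (-0.89) were its extremes.

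The same label could be followed where Bim was labelled present, in Id2KO against WT KLRG1lo. The groups of that comparison share no array with this one, although the variance was pooled over all arrays. There 16 genes passed (0.111%), 12 that rose (0.0831%) and 4 that fell (0.0277%). Of these, 4 were the sex-linked genes Xist, Eif2s3y, Uty and Kdm5d: Xist read 4.47 and 4.99 on the Id2KO arrays and 9.16 to 10.36 on the 4 arrays compared here, so sex and genotype cannot be told apart in Id2KO against WT. The other 12 genes all had the same sign with Bim labelled absent, and their arrays did not overlap. The 9 that rose in Id2KO were Cxcr5, Wdr12, Actn1, Ctla4, Apobec2, Atp1b1, Pls1, Myb and Cd163l1, and their differences between Id2KOBimKO and BimKO had a median of 0.78 and ran from 0.39 to 1.36. The 3 that fell were Cx3cr1, Id2 and S1pr5, with -0.62, -1.10 and -0.29. The label of both comparisons set the direction of Id2 in advance, so its shared sign adds nothing. For comparison, 56.7% of all genes tested had a difference above 0 and 17.6% and 12% were separate in the 2 directions. Markers of other cells also leaned lower in Id2KO than in WT. B cell sums were 639 and 564 on the Id2KO arrays and 630 to 1594 on the WT KLRG1lo arrays. The median difference was -0.52 for B cell, -0.54 for neutrophil and -0.49 for red cell precursor markers. It was 0.03 for CD4 and regulatory T cell markers. The part of these markers in Id2KO against WT was not tested.

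Read the other way, the 10 genes named as higher in Id2KOBimKO were all above 0 in Id2KO against WT, with a median of 0.85. Of the 10 named as lower, 9 were below 0, with a median of -0.46 and Aim2, at 0.15, as the exception. Id2, whose direction the labels set in advance, is among these 10 and among the 50 lower genes counted next. Of the 50 genes with the smallest p, 45 of those that were higher and 37 of those that were lower had the same sign in Id2KO against WT, where 52.2% of all genes were above 0. Over all genes tested, which are not independent replicates, the 2 comparisons correlated weakly (Pearson r = 0.0936, Spearman rho = 0.0761). The differences also had unequal spread over genes, with an SD of 0.204 between Id2KOBimKO and BimKO and 0.355 between Id2KO and WT.

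Cxcr5, the receptor that guides cells to B cell follicles, read 7.47 and 7.07 in Id2KOBimKO and 6.35 and 6.67 in BimKO. All 4 values were above the WT KLRG1lo range of 5.64 to 6.25, and the Id2KO arrays read 7.63 and 7.80. Its difference was 0.76 with Bim labelled absent and 1.80 with Bim labelled present, and the interaction did not pass (adjusted p = 0.726). Cx3cr1, a chemokine receptor of effector cells, read 6.82 and 6.99 against 7.50 and 7.54, below the WT KLRG1lo range of 8.02 to 8.56 on all 4 arrays. Myb, a regulator of memory cell self-renewal, read 8.65 and 8.89 against 8.03 and 8.42, all above the 7.42 to 7.81 of WT. For these 3 genes the BimKO arrays themselves lay on the Id2KO side of WT, which is a comparison between groups and not a paired one.

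When both comparisons were averaged, 26 genes passed (0.18%; 22 up, 0.152%, and 4 down, 0.0277%), and 22 remained without the sex-linked ones, 19 that rose and 3 that fell. The average takes in Id2KO against WT, so for these 22 genes too sex and genotype cannot be told apart in that part. How far the lower markers of other cells in Id2KO enter the average was not tested. Pls1 rose by 1.3 on average (SE 0.15, adjusted p = 0.00052), Nrp1 by 1.44 (adjusted p = 0.00581), Slc43a1 by 0.97 (adjusted p = 0.00248), Erbb3 by 0.97 (adjusted p = 0.0137) and Mprip by 0.85 (adjusted p = 0.00415). Itgam, an integrin chain of effector and innate cells, rose by 1.03 (adjusted p = 0.0168), and read 8.46 and 8.60 in Id2KOBimKO against 7.45 and 7.64 in BimKO. Btla, an inhibitory receptor, rose by 0.72 (adjusted p = 0.0261), with arrays at 8.42 and 8.45 against 7.89 and 7.87. The 3 that fell were Id2 by 1.11 (adjusted p = 0.00137), Cx3cr1 by 1.20 (adjusted p = 0.00367) and Rnf144a by 1.04 (adjusted p = 0.00367). In Id2KOBimKO against BimKO alone the 22 genes differed by 1.46-fold to 2.74-fold, and since these arrays helped to choose them, that range is a description. The count fell to 14 without Id2KOBimKO replicate 1, 15 without Id2KOBimKO replicate 2, 17 without Id2KO replicate 1 and 13 without Id2KO replicate 2.

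The interaction asked whether the Id2 difference itself depended on the Bim label. It passed for 4 genes (0.0277%), all of them sex-linked, and 616 genes (4.27%) had an unadjusted p under 0.05. For the 22 genes of the averaged comparison the adjusted p of the interaction ran from 0.726 to 0.985, which does not show that the Id2 difference was equal in both backgrounds. Pls1 differed by 1.36 and 1.24, and Rnf144a by -1.09 and -0.99, with and without the BimKO label. Il7r, the IL-7 receptor alpha chain, read 9.52 and 9.55 in Id2KOBimKO and 10.29 and 10.55 in BimKO. The Id2KOBimKO arrays lay at the lower end of the WT KLRG1lo range of 9.51 to 10.24, and the BimKO arrays lay above it. The difference of Il7r was -0.89 (SE 0.30, limma unadjusted p = 0.00794), beside 0.22 in Id2KO against WT. The sign differed, but the test of that difference did not pass (adjusted p = 0.726).

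**Figure D3:**
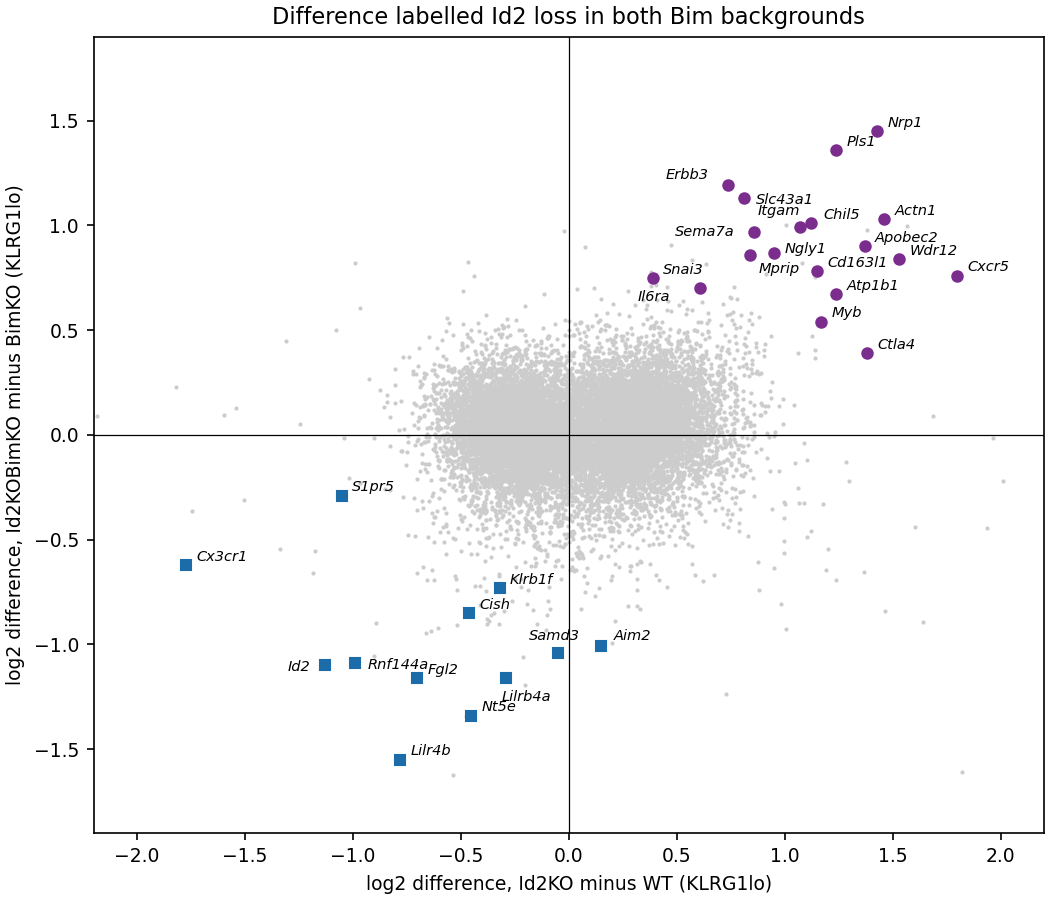
Log2 difference of each gene tested in Id2KO against WT (horizontal) and in Id2KOBimKO against BimKO (vertical), with grey points for all genes inside the ranges drawn and labelled circles (higher) and squares (lower) for genes named by the rule. The 4 sex-linked genes are not labelled and lie outside the horizontal range. Pls1 (1.24 and 1.36) and Nrp1 (1.43 and 1.45) are high on both axes, and Id2 (-1.13 and -1.10) and Rnf144a (-0.99 and -1.09) are low on both.

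The pathways were read by counts, since 0 genes passed in any list. Of 24 tested interferon-stimulated genes, effectors of the antiviral state, 23 had a difference above 0, against 56.7% of all genes. Of the 24, 17 (70.8%) were higher with separate arrays, against 17.6% of all genes, and the median was 0.22 against 0.03. The median was 0.23 without BimKO replicate 2. Irf7, a regulator of interferon genes, read 8.66 and 8.59 in Id2KOBimKO and 8.16 and 7.80 in BimKO, and Oas3, an oligoadenylate synthetase, 8.56 and 8.11 against 7.72 and 7.52. Their differences were 0.64 and 0.71. Rsad2, an antiviral enzyme, read 5.96 and 7.46 against 5.84 and 5.93, so that its difference of 0.83 rested on Id2KOBimKO replicate 2 and was 0.08 without it. In Id2KO against WT the list had a median of 0.37 with 20 of 24 above 0, against 0.03 and 52.2% for all genes. That shift was not particular to the list. Ribosome biogenesis genes had a median of 0.48 there (21 of 21 above 0), glycolysis genes 0.41 and CD8 T cell identity genes 0.33. Lists such as mitosis genes (-0.38) went the other way.

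Actin-binding proteins gave similar counts: 19 of 23 had a difference above 0, and 14 (60.9%) were higher with separate arrays, against 17.6% of all genes. In the other direction 0 had separate arrays, against 12% of all genes, and the median was 0.22. Besides Pls1 and Actn1 these included Coro1a, a coronin of leukocytes, with 11.98 and 11.52 against 11.36 and 11.06 (0.54), and Msn, which links actin to the membrane, with 11.34 and 11.20 against 11.12 and 10.66 (0.38, and 0.15 without BimKO replicate 2). The 11 CD8 T cell identity genes, the markers of the cells themselves, had a median of 0.21 with 8 above 0. Of these 11, 6 (54.5%) were higher with separate arrays and 0 were lower, a share near that of the actin list. With each array's spread in the model the medians were 0.17 for interferon-stimulated genes, 0.18 for actin-binding proteins and 0.16 for CD8 identity genes. Among 14 amino acid transporters 8 were above 0, with a median of 0.06. Slc43a2, of the same transporter family as Slc43a1, read 7.20 and 7.17 against 6.80 and 6.68 (0.44), while Slc7a5, a transporter of large neutral amino acids, differed by 0.24 with overlapping arrays by -0.14 without BimKO replicate 1 and by 0.61 without BimKO replicate 2.

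Mitosis genes lay on the other side. Of 25 tested, 20 had a difference below 0 and 10 were lower with separate arrays, against 12% of all genes, and the median was -0.29. It was -0.11 without BimKO replicate 2, with 18 below 0. Mad2l1, a spindle checkpoint protein, read 7.15 and 6.90 in Id2KOBimKO and 7.56 and 7.87 in BimKO, a difference of -0.69 (SE 0.22). Kif23, a kinesin of cytokinesis, read 6.80 and 6.69 against 7.06 and 7.41 (-0.49). Mki67, the proliferation marker Ki-67, read 7.82 and 8.28 against 8.20 and 9.01 (-0.56), with overlapping arrays, and Ccna2, cyclin A2, differed by -0.48. Without BimKO replicate 2 both differed by -0.15, and Kif23 by -0.32. In Id2KO against WT the median of the list was -0.38, with 1 of 25 above 0. Of 26 DNA replication genes 20 were below 0, with a median of -0.16, and of -0.08 without BimKO replicate 2, and Ccne2, cyclin E2, had the smallest p (-0.86) with a signal below the background on 3 of the 4 arrays, and differed by -0.41 without BimKO replicate 2.

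NK type receptors, which effector CD8+ T cells share with NK cells, had the lowest median of the lists named here. Of 12 tested, 9 were below 0, 5 (41.7%) were lower with separate arrays, against 12% of all genes, and the median of -0.72 became -0.17 without BimKO replicate 2. Klrc1, which encodes the inhibitory receptor NKG2A, read 8.84 and 8.81 in Id2KOBimKO and 9.55 and 10.49 in BimKO, a difference of -1.20 (SE 0.37) and of -0.72 without BimKO replicate 2. Klrb1c, which encodes NK1.1, read 5.61 and 4.90 against 5.76 and 6.54, near the background, and Cd244a read 4.79 and 4.94 against 5.12 and 6.33. Their differences of -0.90 and -0.86 were -0.50 and -0.26 without BimKO replicate 2. Of the 5 with separate arrays, Cd244a was below the background on 3 of the 4 arrays and Klre1 on all 4. Klre1 was highest in WT KLRG1hi, at 5.38 to 6.04. The 7 tested NK cell markers, which share Klrb1c and other genes with this list, were all below 0 with a median of -0.39, and of -0.05 without BimKO replicate 2.

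Among inhibitory receptors, 6 of 12 lay above 0 and 6 below. Separate arrays were seen for 4 that were higher (33.3%) and 5 that were lower (41.7%), against 17.6% and 12% of all genes. Entpd1, the ectoenzyme CD39 that acts before CD73, read 6.03 and 6.14 against 6.79 and 7.50, a difference of -1.06 (SE 0.32), and of -0.70 without BimKO replicate 2. The Id2KOBimKO arrays lay below the WT KLRG1lo range of 6.59 to 7.01, as did the Id2KO arrays with 5.80 and 5.99, and the BimKO arrays did not. Cd160, a ligand-binding receptor of cytotoxic cells, differed by -0.72. Btla and Ctla4 were on the other side, with 0.56 and 0.39 and separate arrays.

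Genes of memory precursors were split. Of 19 tested, 12 were above 0 and 7 below, and 13 had separate arrays, 8 of them higher (42.1%) and 5 lower (26.3%), against 17.6% and 12% of all genes. Id3 (0.98) and Myb (0.54) were higher, while Il7r (-0.89), Bcl2 (-0.75), Tnfsf8, the CD30 ligand (-0.82), and Bcl6, a transcriptional repressor (-0.54), were lower. For Tnfsf8, as for Il7r, both BimKO arrays (7.01 and 7.47) lay above the WT KLRG1lo range, here 6.39 to 6.81. For Bcl6 both Id2KOBimKO arrays (5.44 and 5.38) lay below the WT KLRG1lo range of 5.97 to 6.52. Bcl2, the survival protein that Bim opposes, read 7.04 and 7.27 in Id2KOBimKO and 7.57 and 8.24 in BimKO. The Id2KOBimKO arrays were within the WT KLRG1lo range of 6.90 to 7.69, and 1 of the BimKO arrays, replicate 2, was above it, without which the difference was -0.41. The 14 tested members of the Bcl-2 family otherwise had small differences, with a median of 0.10, and of -0.09 without BimKO replicate 2. Bmf differed by 0.28 (0.15 without BimKO replicate 2) and Pmaip1, which encodes Noxa, by -0.22.

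Effector genes had no common direction: 11 of 22 were above 0 and 11 below, with a median of -0.02. Itgam (0.99) and Cx3cr1 (-0.62) were opposite, and Il12rb2, an IL-12 receptor chain, differed by -0.46. Fasl, a death ligand, read 6.32 and 6.05 against 6.38 and 7.81, so that its difference of -0.90 was -0.19 without BimKO replicate 2. Cxcr6, a chemokine receptor of tissue-homing cells, read 8.52 and 8.09 against 9.38 and 9.04, and its difference of -0.90 (SE 0.33) was -1.07 without that array. Of 36 T cell transcription factors 25 were above 0, with a median of 0.14. Zbtb32, a zinc finger repressor, differed by 0.40, and Ikzf2, which encodes Helios, read 5.84 and 5.79 against 5.80 and 7.59, so that its difference of -0.88 became 0.02 without BimKO replicate 2.

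**Figure D4:**
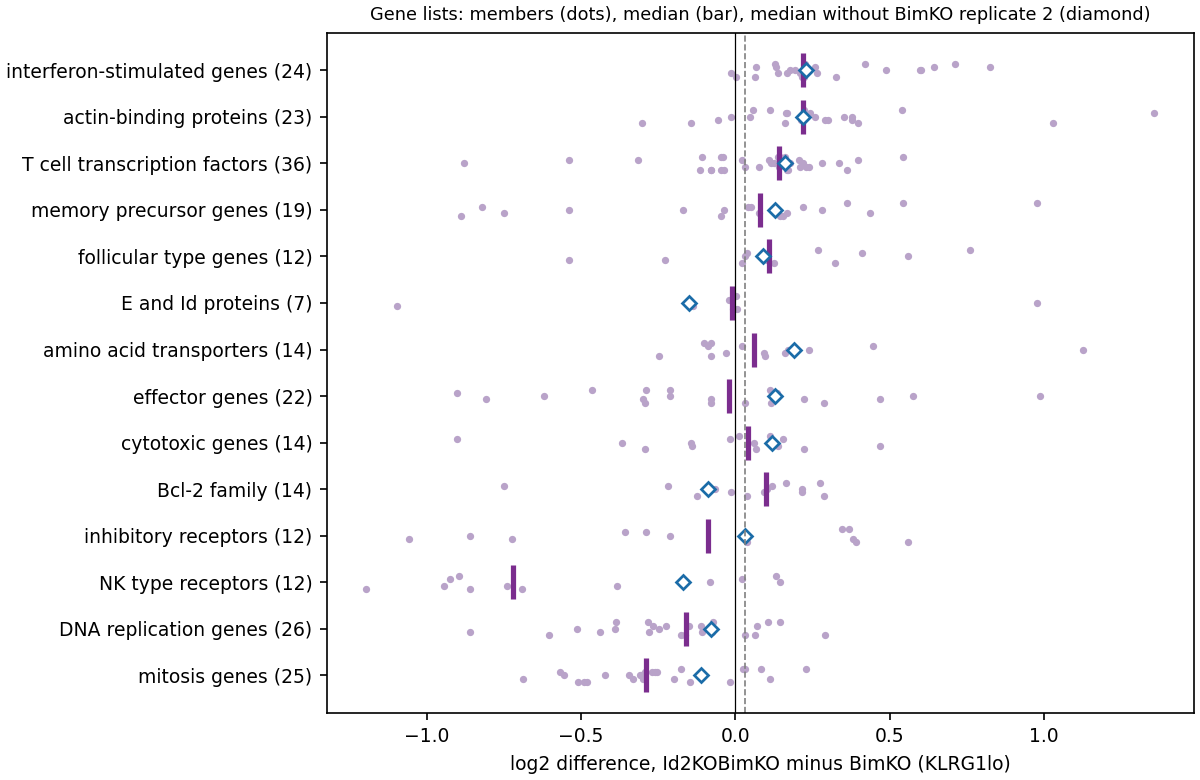
Log2 difference between Id2KOBimKO and BimKO KLRG1lo cells for the tested members of 14 gene lists (1 dot per gene, number tested in brackets), with the median as a bar, the median without BimKO replicate 2 as a diamond, and the median of all genes, 0.03, as a dashed line. Medians of interferon-stimulated genes and actin-binding proteins stayed at 0.22 to 0.23, whereas that of NK type receptors moved from -0.72 to -0.17.

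Genes that part KLRG1hi from KLRG1lo WT cells were taken from the WT arrays, which are not among the arrays compared here. Of 136 that passed there (0.942%), 98 were higher (0.679%) and 38 lower (0.263%) in KLRG1hi, and 67 of the 98 had a difference below 0 in Id2KOBimKO against BimKO, with a median of -0.21. Over all genes tested 6253 of 14438 were below 0. Without BimKO replicate 2 the count was 55 of 98 and the median -0.04, against 7143 of all genes and a median of 0.00. The 38 genes that were lower in KLRG1hi had a median of -0.09, with 21 below 0.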

How the data were processed

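The deposited values were linear array intensities that the authors made with RMA (no version given), on build mm9, per the submitters' processing notes. RMA subtracts background, equalises arrays and summarises probes, which compresses differences of dim probe sets. Scanner files were not analysed here. Of 34760 probe sets, 21640 named 1 gene, 1321 several and 11799 none, and 21553 matched RefSeq (GRCm38.p6). The log2 of the intensity was taken, the brightest single-gene probe set by mean stood for each of 19937 genes, and 14438 genes above the 40th percentile on at least 2 arrays were tested. All 14 arrays, in 5 groups by title, entered 1 limma fit (limma 3.58.1, R 4.3.3, the R package data.table, version 1.17.8) with empirical Bayes and Benjamini-Hochberg adjustment at 0.05, after a check on simulated data. Named genes were Id2, Bcl2l11, Klrg1, Pls1, Slc43a1, the E and Id proteins, the 10 genes with the smallest p in each direction with separate arrays, up to 4 per list, and those passing the Id2KO against WT, averaged and interaction comparisons (up to 10 in each direction). Members and lists were chosen with earlier results of these data known. Alternatives covered quantile normalization, no filter, array spread, a replicate block, fewer groups, and leaving out each array.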

Additional observations from a re-analysis of the deposited data

Results flagged for a closer look

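The interaction of the Id2 and Bim labels passed for 4 genes, all sex-linked, with limma and Benjamini-Hochberg adjustment. The Id2 difference with Bim labelled absent minus that with Bim labelled present was -5.02 for Eif2s3y, -3.84 for Uty, -3.06 for Kdm5d and 4.37 for Xist on the log2 scale. Eif2s3y, a translation factor gene of the Y chromosome, read 7.39 and 8.20 on the Id2KO arrays and 3.02 to 3.66 on the Id2KOBimKO and BimKO arrays. Kdm5d read 6.85 and 7.61 on the Id2KO arrays and 3.55 to 4.18 on the WT KLRG1lo arrays. The Id2KO arrays were thus the ones that stood apart, and for them sex and the Id2 label cannot be told apart.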

How the results depend on the processing

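Between Id2KOBimKO and BimKO, where 0 genes passed, quantile normalization gave 1 (Id2), array spread as a covariate gave 4 (Id2, Pls1, Rnf144a, Slc43a1), and leaving out 1 array gave 0 to 3. The 3 were Car1, Ikzf2 and Snora44, without BimKO replicate 1, when BimKO replicate 2 alone stood for its group and was assumed to vary like the others. Over all genes tested, deviations of same-numbered samples from their group means correlated at -0.0652. With 2 arrays per group both same-numbered pairs must give the same correlation, so this is 1 value and not 2. It does not establish a pairing, although B cell, monocyte, neutrophil and red cell marker sums were higher on replicate 2 of both groups. A replicate block gave 0 here, 5 for Id2KO against WT, 8 for the averaged comparison and 42 for WT KLRG1hi against KLRG1lo. Id2KO against WT (16) gave 43 on the 11 KLRG1lo arrays, 26 on its groups alone, and 4 to 39 leaving out 1 array (7 without Id2KO replicate 1, 4 without Id2KO replicate 2, 39 without WT replicate 2). The averaged comparison (26) gave 52 with array spread and 13 to 31 leaving out 1 array. WT KLRG1hi against KLRG1lo (136) gave 225 with quantile normalization, 376 with array spread, 78 on its groups alone and 45 to 179 leaving out 1 array. Arrays of the higher background set alone, chosen after seeing the data like every alternative for the WT comparison, gave 2405 for Id2KO against WT, 63 for the interaction (4), which ran from 3 to 6 leaving out 1 array, and 1388 for WT KLRG1hi. There Id2KO, Id2KOBimKO and WT KLRG1hi have 1 array each, assumed to vary like the other groups, so these counts compare single arrays. The cause of these moves was not tested. Of 76 genes, 66 kept their sign in every alternative, which leaving out an array cannot change for genes with separate arrays. Reversals were Id4 (0.01 with quantile normalization, 0.04 with array spread), Tcf12 (-0.04, -0.09, and -0.06 in the higher background set), and in that set Id1 (-0.03), Tcf4 (0.03) and Xist (0.11). Leaving out 1 array, ranges crossing 0 were -0.66 to 0.93 for Klrg1, -0.17 to 0.18 for Id1, -0.15 to 0.11 for Id4, -0.17 to 0.16 for Tcf3, -0.30 to 0.03 for Tcf4, -0.06 to 0.07 for Tcf12, -0.14 to 0.61 for Slc7a5, -1.78 to 0.02 for Ikzf2, -0.95 to 0.11 for Xist and -0.22 to 0.65 for Kdm5d.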
